A study of Sus scrofa with 32 samples.

Results

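The antioxidant and glutathione genes described here are 38 genes of pig loin muscle whose symbols name a peroxiredoxin, thioredoxin, thioredoxin reductase, thioredoxin-domain protein, glutathione peroxidase, glutathione transferase, superoxide dismutase, catalase, quinone reductase, haem oxygenase, sestrin, sulfiredoxin or an enzyme of glutathione synthesis and recycling. The rule uses symbols and no measured value, and was drawn up with earlier results of these data known. It was applied to the 17930 gene identifiers listed in any library, of which 10836 could be paired with a symbol. Other genes of these families, such as GPX1, SOD2 and TXN, are not analysed here. RNA of the longissimus dorsi was sequenced from 32 pigs, 8 in each of 4 breed groups, and the question the design puts to these genes is whether their transcript levels differ between the breeds. The groups were the 3-way cross Duroc x Landrace x Dapulian (DLDPL), the cross Landrace x Dapulian (LDPL), the Chinese breed Dapulian (DPL) and the European breed Landrace (L). All pigs were labelled wild type, were 6 months old and had been kept under similar housing and feed. The labels give no sex, sire, batch or date, so breed and any of these cannot be told apart.

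Muscle fibres make superoxide and hydrogen peroxide in their mitochondria and at their membranes, and several enzyme systems remove them. Superoxide dismutases turn superoxide into hydrogen peroxide, which catalase, the glutathione peroxidases and the peroxiredoxins break down. The peroxidases are then recharged with electrons from NADPH, through glutathione and glutathione reductase or through thioredoxin and thioredoxin reductase, and sulfiredoxin repairs peroxiredoxins that have been overoxidised. The transcription factor NRF2, held down by KEAP1, drives many of these genes, among them SRXN1, TXNRD1, GCLC, GSR, PRDX1 and NQO1, and BACH1 represses some of the same set.

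Libraries held 24972962 ± 2268551 uniquely mapped reads in DLDPL, 24612294 ± 771859 in LDPL, 26184718 ± 3068135 in DPL and 26590633 ± 1158018 in L (mean ± SD, n = 8 each), and the 38 genes took 0.146 to 0.218% of them. Levels below are in CPM, counts scaled to a common library size by TMM, which levels libraries through most of their genes. RPKM, the deposited value that also divides by gene length, is used to set genes beside each other. Changes are log2 ratios from edgeR's quasi-likelihood test, and a gene was called at a Benjamini-Hochberg adjusted p under 0.05 over all 12821 genes tested. Adjusted p-values given below come from that test, except where another tool is named. Muscle fibre markers (ACTA1, TNNC2, NEB and DES) were abundant in all groups. One library, Landrace replicate 2, stood apart in its cell markers. It had the lowest summed muscle fibre markers of all 32 libraries (47526 CPM) and the highest macrophage (142.7 CPM) and lymphocyte (30.9 CPM) sums. Calls of the antioxidant genes that were gained or lost without it are named beside the results. Genes of the pathway lists and cell markers are given with this library included only.

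Enough reads to be tested were found for 36 of the 38 genes. GSTT4, a glutathione transferase, had 3 reads in all, in 3 libraries, and TXNDC8, a thioredoxin-domain protein known from testis, had 1 read in 1 library. Of the 38 genes, 20 had a mean of at least 10 RPKM and 6 a mean under 1 RPKM. Per length, the highest was PRDX2, a cytosolic peroxiredoxin, at a mean of 205.7 RPKM over the 32 libraries. It was followed by TXNL1 at 136 RPKM, CAT at 112 RPKM, SESN1 at 106 RPKM, PRDX3 at 90.8 RPKM and SOD1 at 90.4 RPKM. These 6 genes held 63.6% of the 1165 RPKM that the means of all 38 add up to. SESN1 and CAT, and PRDX3 and SOD1, are neighbours in this order whose library ranges overlapped in every group. At the other end stood SESN2 at 0.752 RPKM, the glutathione synthetase GSS at 0.666 RPKM, GSTM3 at 0.419 RPKM and TXNL4B at 0.221 RPKM. Reads covered 25.4 to 45.0% of the listed length of GSS and 9.07 to 31.5% of that of TXNL4B. For PRDX3, among the highest, the covered part was 64.1 to 76.5%. RPKM divides by the whole listed length, so the places of these genes in the order are uncertain.

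**Figure D1:**
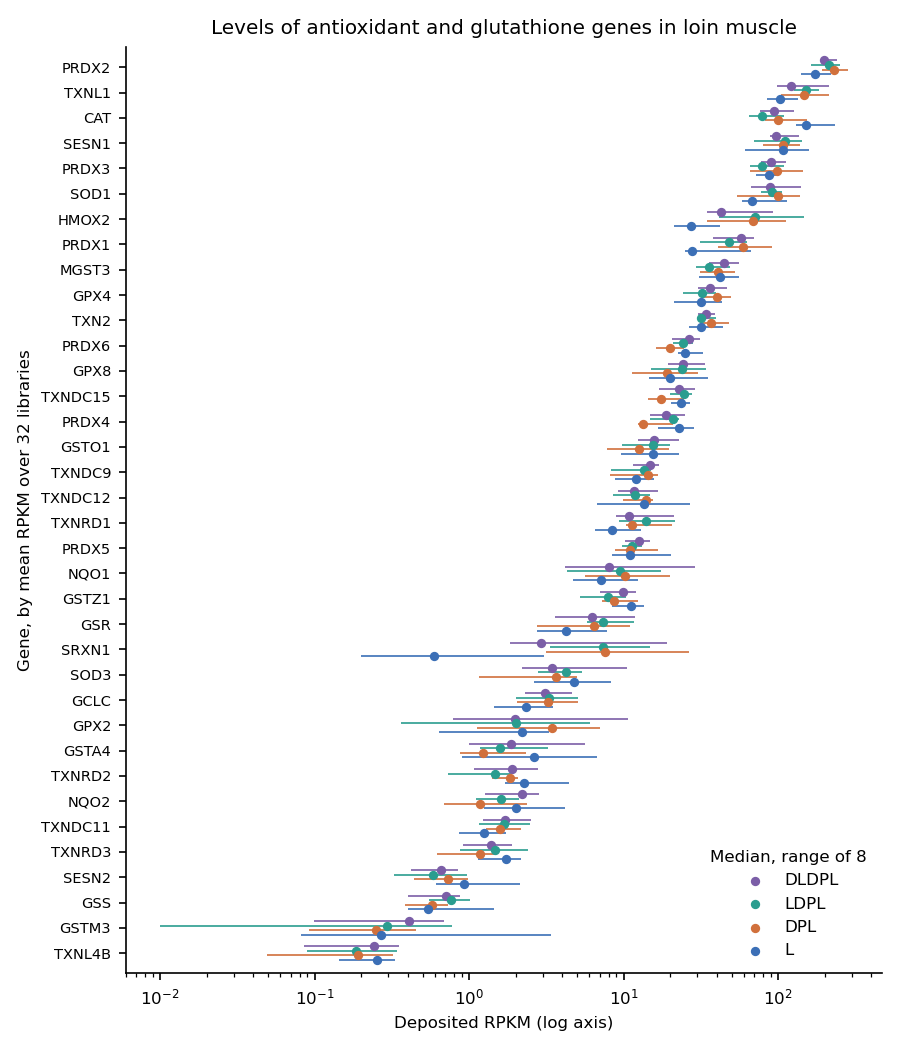
Deposited RPKM (log axis) of the 36 tested genes, ordered by their mean over 32 libraries, with the median (point) and the range (line) of 8 libraries for DLDPL, LDPL, DPL and L; an LDPL library with no GSTM3 read is drawn at the left end of its line. PRDX2, at a mean of 205.7 RPKM, leads the order, and SRXN1 shows the widest gap between Landrace and the other groups.

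Most of the differences lay between Landrace and the groups that carry Dapulian ancestry. In Dapulian against Landrace, 13 of the 36 tested genes were higher and 4 were lower, which is 36.1% and 11.1% of them, while of all genes tested 19.1% were higher and 18.9% lower. In LDPL against Landrace 9 were higher and 4 lower, or 25.0% and 11.1%, beside 14.9% and 14.7% of all genes. In DLDPL against Landrace 9 were higher and 2 lower, or 25.0% and 5.6%, beside 11.6% and 10.3% of all genes. The share of higher genes was thus above that of all genes in each of the 3 comparisons, and the share of lower genes was below it. The median log2 change of the 36 genes was 0.12 in DLDPL, 0.07 in LDPL and 0.17 in DPL against Landrace, where the medians of all genes were -0.02, -0.03 and -0.02. These 3 comparisons share the same 8 Landrace libraries and are not independent of each other.

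Among the groups with Dapulian ancestry few genes differed. In LDPL against DPL, 0 of the 36 genes were higher and 3 were lower (8.3%), where 1.29% of all genes were higher and 1.56% lower. In DLDPL against DPL, edgeR called 0 of the 36 genes in either direction, while 1.98% of all genes were higher and 2.12% lower. DESeq2 called 1 of the 36 lower. At an unadjusted p under 0.05 in edgeR there were 9 of the 36 genes, beside 2560 of all 12821. In DLDPL against LDPL edgeR called 0, with 5 of the 36 at an unadjusted p under 0.05, and DESeq2 also called 0 of the 36. In that comparison 0% of all genes were called higher and 0% lower, with 969 of 12821 at an unadjusted p under 0.05. A test of any difference between the 4 groups called 17 of the 36 genes (47.2%), beside 37.4% of all genes.

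The counts against Landrace moved with the scaling. With library totals alone, which lowers the median of all genes in DPL against L to -0.19, the split was 8 higher and 7 lower in place of 13 and 4, or 22.2% and 19.4% of the genes, where 10.3% of all genes were then higher and 26.2% lower. In DLDPL against L it was 5 higher and 2 lower in place of 9 and 2, or 13.9% and 5.56%, beside 8.21% and 8.49% of all genes. Without Landrace replicate 2 the counts were 9 higher and 2 lower in DLDPL, 9 and 3 in LDPL, and 12 and 6 in DPL against Landrace. In DPL that is 33.3% and 16.7% of the genes, beside 18.6% of all genes in each direction. PRDX6 and TXNDC15 were then also called lower in DPL and PRDX4 in DLDPL, while PRDX3 in DPL and SESN2 in both crosses were no longer called. In LDPL against DPL, leaving out either Landrace replicate 2 or Dapulian replicate 23 left 1 gene lower in place of 3. That gene was CAT, and GPX4 and TXN2 were no longer called. The RefSeq annotation also places PRDX2 over RNASEH2A, SOD1 over SCAF4 and SESN1 over ARMC2, and without strand the reads of such partners cannot be told apart. Members of the peroxiredoxin and glutathione transferase families can have near-identical copies, and counts are uncertain where such copies share reads.

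**Figure D2:**
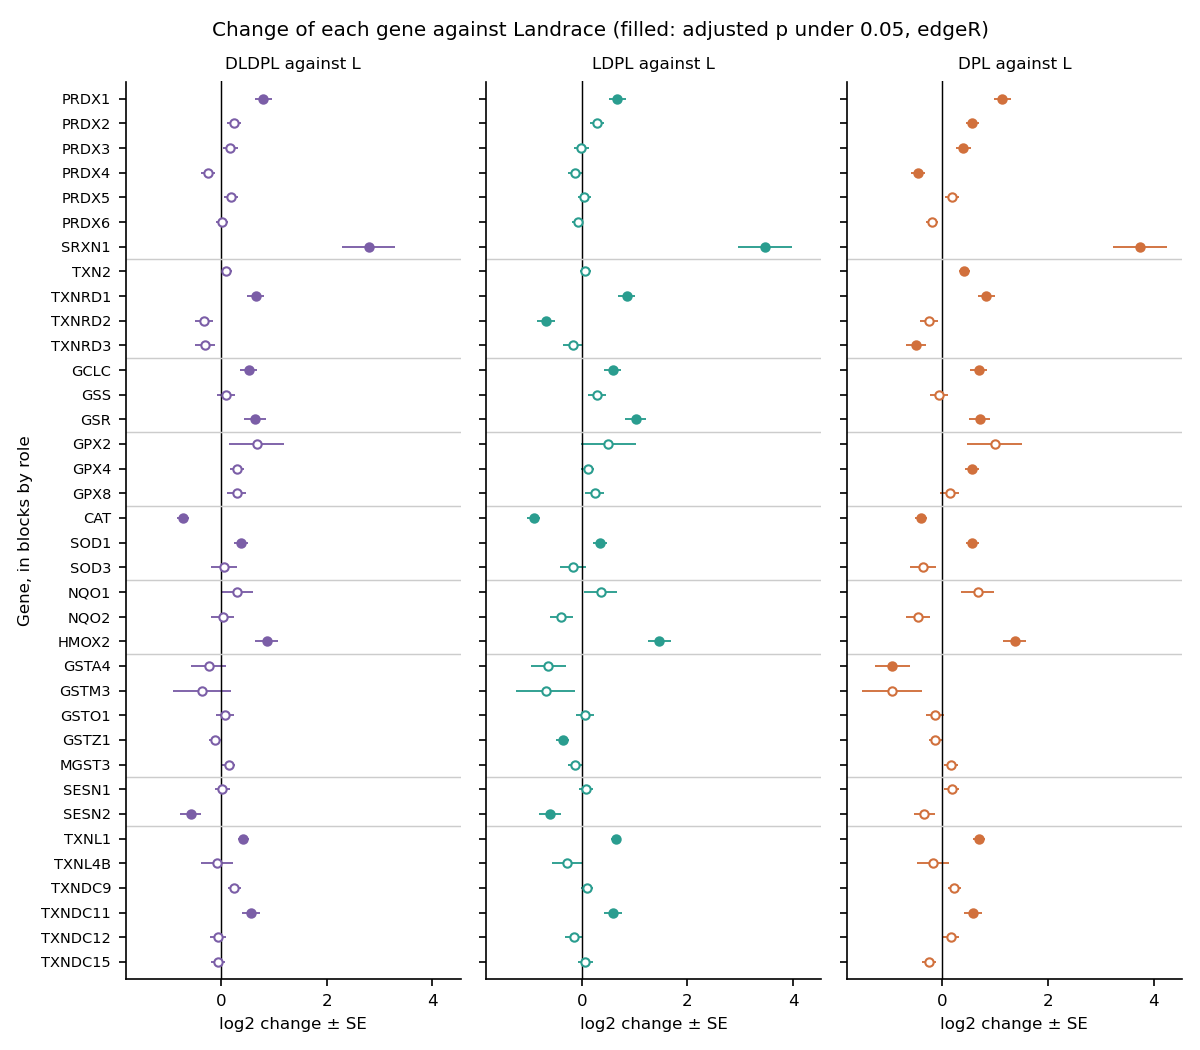
Log2 change (± SE, edgeR) of the 36 tested genes against Landrace in DLDPL, LDPL and DPL, in blocks by role; filled points have an adjusted p under 0.05 and a line marks no change. SRXN1 lies farthest to the right in each panel (2.79, 3.47 and 3.74), and CAT is a filled point on the left in all of them.

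Of the 20 genes called in at least 1 comparison with Landrace, 9 were higher in all 3 (SRXN1, PRDX1, TXNRD1, TXNL1, TXNDC11, GSR, GCLC, HMOX2 and SOD1) and 1, CAT, was lower in all 3. How many of all genes tested were called in all 3 was not counted, and the 3 comparisons share their Landrace libraries. The counts by role below are small and stand beside the shares of all genes given above. Under upper quartile scaling, or a filter of mean RPKM at least 1, 8 of the 9 were higher in all 3, without SOD1. With library totals alone, or with limma on log2(RPKM + 1), 5 of the 9 were higher in all 3 (SRXN1, PRDX1, TXNRD1, TXNL1 and HMOX2). With limma on log2(RPKM + 0.1) these were 4, without TXNL1, and CAT was lower in all 3 under each of these settings. The genes are described by role, starting with the peroxiredoxins, of which 4 of 7 with sulfiredoxin were higher and 1 lower in DPL against L, and 2 of 7 were higher and 0 lower in LDPL and in DLDPL. The gene with the largest difference was SRXN1, which encodes sulfiredoxin, the enzyme that restores overoxidised peroxiredoxins. SRXN1 (ENSSSCG00000023298) ran from 4.8 to 39.5 CPM (median 8.02) in the DLDPL libraries, 8.39 to 38.2 (median 18.2) in LDPL, 10.6 to 64.9 (median 19.97) in DPL and 0.542 to 5.38 (median 1.5) in L. No LDPL or DPL library overlapped with Landrace, and 7 of the 8 DLDPL libraries lay above the highest Landrace library. Mean SRXN1 levels were 12.9 ± 11.3 CPM in DLDPL, 20.6 ± 11.7 in LDPL, 25 ± 18.4 in DPL and 1.84 ± 1.59 in L (SD, n = 8 each). Against Landrace, the log2 ratio of SRXN1 was 2.79 ± 0.50 (SE, adjusted p = 0.000124) in DLDPL, 3.47 ± 0.51 (SE, adjusted p = 4.45e-06) in LDPL and 3.74 ± 0.51 (SE, adjusted p = 7.58e-07) in DPL. The fitted fold was 6.9 in DLDPL, 11.0 in LDPL and 13.4 in DPL, on a Landrace level of 14 reads at its lowest. The highest Landrace library was replicate 2, and without it the log2 changes were 3.27, 3.95 and 4.22 in DLDPL, LDPL and DPL. Spread was wide within every group, with a coefficient of variation of 88.3% in DLDPL, 56.7% in LDPL, 73.6% in DPL and 86.7% in L.

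PRDX1, a cytosolic peroxiredoxin, was also higher in all 3 groups than in Landrace. PRDX1 (ENSSSCG00000003914) ran from 36 to 68 CPM (median 49.6) in the DLDPL libraries, 29.1 to 57 (median 47.9) in LDPL, 43.5 to 84.8 (median 57.9) in DPL and 22.2 to 43.8 (median 26.7) in L. All but 1 of the Landrace libraries lay at or under 29.1 CPM, and the exception, replicate 2 at 43.8 CPM, was within the range of the other groups. Mean PRDX1 levels were 49.6 ± 9.64 CPM in DLDPL, 45.3 ± 9.53 in LDPL, 62.6 ± 17.2 in DPL and 28.4 ± 6.57 in L (SD, n = 8 each). Relative to L, the fitted log2 change of PRDX1 was 0.80 ± 0.16 (SE, adjusted p = 0.000406) in DLDPL, 0.67 ± 0.16 (SE, adjusted p = 0.00163) in LDPL and 1.14 ± 0.16 (SE, adjusted p = 1.2e-06) in DPL. Without Landrace replicate 2 the changes were 0.91, 0.78 and 1.24 in DLDPL, LDPL and DPL.

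PRDX2, PRDX3 and PRDX4 showed smaller differences, which passed the threshold in Dapulian against Landrace. In the direct comparisons of the crosses with Dapulian none of these genes was called. PRDX2 is the cytosolic peroxiredoxin that is also abundant in red blood cells. PRDX2 (ENSSSCG00000013736) ran from 151 to 229.7 CPM (median 194) in the DLDPL libraries, 147 to 247 (median 212) in LDPL, 195 to 357 (median 233) in DPL and 110.2 to 192 (median 170.1) in L. Every Dapulian library lay above every Landrace library, and replicate 23 was the highest Dapulian one. Mean PRDX2 levels were 192 ± 25.5 CPM in DLDPL, 199 ± 38.2 in LDPL, 242 ± 52.7 in DPL and 163 ± 27.6 in L (SD, n = 8 each). For PRDX2, the log2 change against Landrace was 0.24 ± 0.13 (SE, adjusted p = 0.194) in DLDPL, 0.29 ± 0.13 (SE, adjusted p = 0.0933) in LDPL and 0.57 ± 0.13 (SE, adjusted p = 0.00082) in DPL. Summed red blood cell markers ran from 28.4 to 523 CPM in DLDPL, 39.8 to 297 in LDPL, 31.3 to 142 in DPL and 5.66 to 169 in L, and were at similar medians in DPL (76.6 CPM) and L (78.7 CPM).

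PRDX3 is the peroxiredoxin of the mitochondrial matrix. PRDX3 (ENSSSCG00000010682) ran from 165 to 293 CPM (median 209) in the DLDPL libraries, 159.9 to 268 (median 179) in LDPL, 203 to 372 (median 238) in DPL and 144 to 233 (median 203) in L. The groups overlapped, and the highest values were in Dapulian. Mean PRDX3 levels were 222 ± 42.8 CPM in DLDPL, 196 ± 37.9 in LDPL, 261 ± 63.4 in DPL and 198 ± 29.3 in L (SD, n = 8 each). Set against L, PRDX3 had a log2 change of 0.17 ± 0.14 (SE, adjusted p = 0.412) in DLDPL, -0.01 ± 0.14 (SE, adjusted p = 0.964) in LDPL and 0.40 ± 0.14 (SE, adjusted p = 0.0197) in DPL. The call in DPL was lost without Landrace replicate 2 (log2 change 0.33, adjusted p = 0.0523) and also without Dapulian replicate 19. It was also lost under 4 of 10 other settings, with adjusted p of up to 0.216. These were upper quartile scaling, library totals alone and both limma fits. PRDX4, the peroxiredoxin of the endoplasmic reticulum, went the other way. PRDX4 (ENSSSCG00000012171) ran from 14 to 23.4 CPM (median 19.8) in the DLDPL libraries, 16.3 to 24.5 (median 21.5) in LDPL, 13.9 to 22.9 (median 14.7) in DPL and 12.1 to 30.1 (median 23.6) in L. Dapulian values were mostly under those of Landrace, apart from Landrace replicate 2 at 12.1 CPM, which was the lowest of all. Mean PRDX4 levels were 19.4 ± 2.91 CPM in DLDPL, 21.2 ± 2.66 in LDPL, 16.8 ± 3.43 in DPL and 23.1 ± 5.52 in L (SD, n = 8 each). With L as the base, the log2 change of PRDX4 was -0.25 ± 0.14 (SE, adjusted p = 0.203) in DLDPL, -0.12 ± 0.14 (SE, adjusted p = 0.539) in LDPL and -0.46 ± 0.14 (SE, adjusted p = 0.00903) in DPL. Without that library PRDX4 was lower in DPL (-0.57, adjusted p = 0.000374) and was also called lower in DLDPL (-0.35, adjusted p = 0.0328).

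Of the thioredoxin system, the cytosolic reductase was higher and a mitochondrial or testis-type reductase was lower where called. TXNRD1 is the thioredoxin reductase of the cytosol. TXNRD1 (ENSSSCG00000000843) ran from 32.3 to 60.4 CPM (median 39.5) in the DLDPL libraries, 33 to 78.4 (median 49.9) in LDPL, 38.7 to 73.7 (median 44.2) in DPL and 23.2 to 31.8 (median 28.6) in L. Every library of the other groups lay above every Landrace library. Mean TXNRD1 levels were 43.2 ± 9.98 CPM in DLDPL, 49.8 ± 14.6 in LDPL, 49.1 ± 12.2 in DPL and 27.6 ± 3.34 in L (SD, n = 8 each). The log2 change of TXNRD1 against L was 0.65 ± 0.16 (SE, adjusted p = 0.00308) in DLDPL, 0.85 ± 0.16 (SE, adjusted p = 0.000116) in LDPL and 0.83 ± 0.16 (SE, adjusted p = 9.29e-05) in DPL. TXNRD2 is its mitochondrial counterpart. TXNRD2 (ENSSSCG00000010131) ran from 2.2 to 4.68 CPM (median 3.57) in the DLDPL libraries, 1.31 to 3.59 (median 2.76) in LDPL, 2.77 to 5.09 (median 3.56) in DPL and 3.35 to 5.66 (median 4.32) in L. LDPL was lowest, with replicate 14 far under its group, and all groups overlapped Landrace. Mean TXNRD2 levels were 3.42 ± 0.802 CPM in DLDPL, 2.69 ± 0.664 in LDPL, 3.62 ± 0.706 in DPL and 4.3 ± 0.773 in L (SD, n = 8 each). Against Landrace, the log2 ratio of TXNRD2 was -0.33 ± 0.17 (SE, adjusted p = 0.154) in DLDPL, -0.68 ± 0.17 (SE, adjusted p = 0.00241) in LDPL and -0.25 ± 0.17 (SE, adjusted p = 0.23) in DPL. TXNRD3 is a reductase with a glutaredoxin domain, known mainly from mouse testis. TXNRD3 (ENSSSCG00000023929) ran from 1.7 to 3.89 CPM (median 2.38) in the DLDPL libraries, 1.67 to 4.38 (median 2.76) in LDPL, 1.29 to 2.8 (median 2.3) in DPL and 2.14 to 3.65 (median 3.27) in L. The groups overlapped throughout. Mean TXNRD3 levels were 2.48 ± 0.711 CPM in DLDPL, 2.74 ± 0.855 in LDPL, 2.17 ± 0.564 in DPL and 3.06 ± 0.52 in L (SD, n = 8 each). Relative to L, the fitted log2 change of TXNRD3 was -0.31 ± 0.19 (SE, adjusted p = 0.259) in DLDPL, -0.16 ± 0.19 (SE, adjusted p = 0.565) in LDPL and -0.49 ± 0.19 (SE, adjusted p = 0.0423) in DPL. The TXNRD3 call was lost in 9 of the 32 fits that left out 1 library.

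TXN2 is the mitochondrial thioredoxin that serves PRDX3. TXN2 (ENSSSCG00000000144) ran from 49.2 to 74.9 CPM (median 52.7) in the DLDPL libraries, 49.8 to 69.4 (median 55.6) in LDPL, 61.5 to 100.3 (median 65.6) in DPL and 45.9 to 59.6 (median 53.9) in L. All Dapulian libraries were above all Landrace libraries, and the crosses overlapped both. Mean TXN2 levels were 57.1 ± 9.04 CPM in DLDPL, 56.1 ± 6.4 in LDPL, 71.5 ± 13.2 in DPL and 53.4 ± 4.02 in L (SD, n = 8 each). For TXN2, the log2 change against Landrace was 0.10 ± 0.10 (SE, adjusted p = 0.53) in DLDPL, 0.07 ± 0.10 (SE, adjusted p = 0.631) in LDPL and 0.42 ± 0.10 (SE, adjusted p = 0.00124) in DPL. The DPL call against L was lost under 2 of 10 other settings, with adjusted p of up to 0.0617. These were library totals alone and limma on log2(RPKM + 0.1). TXN2 was also lower in LDPL than in DPL, by a log2 change of -0.35 ± 0.10 (SE, adjusted p = 0.0499). That call was lost in 27 of the 32 fits that left out 1 library and under 6 of 10 other settings. In DLDPL against DPL the change was -0.33 ± 0.10 (SE, adjusted p = 0.0588), which missed the threshold, and DESeq2 called it.

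The share of reads from mitochondrially encoded genes was 14.8 to 29.7% of reads in DLDPL (mean 22.7%), 15.8 to 30.0% in LDPL (22.9%), 22.2 to 37.3% in DPL (31.3%) and 17.3 to 24.8% in L (20.8%). DPL had the highest mean share. It also had the highest means of PRDX3, TXN2 and GPX4, and of genes whose products act outside the mitochondria, such as PRDX2 and TXNL1, while TXNRD2 had its highest mean in L. With the 13 mitochondrially encoded genes left out of counts and totals, the counts against Landrace were the same, at 9 higher and 2 lower in DLDPL, 9 and 4 in LDPL and 13 and 4 in DPL. The part of the mitochondrial share in the levels above was not tested, and that fit does not test it. In bulk tissue, fewer cells of a type and less RNA per cell cannot be told apart.

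**Figure D3:**
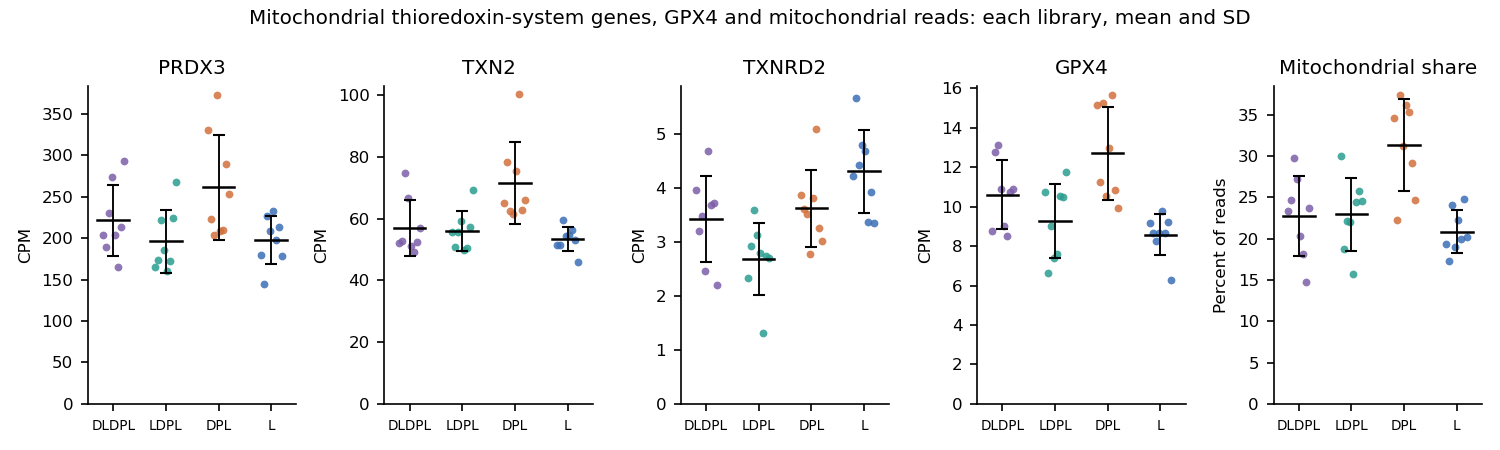
CPM of PRDX3, TXN2, TXNRD2 and GPX4 and the mitochondrially encoded share of reads in each library (points), with mean and SD of 8 (lines), for DLDPL, LDPL, DPL and L. Mean TXN2 is 71.5 CPM in DPL and 53.4 CPM in L, where mean mitochondrial shares are 31.3% and 20.8%, while TXNRD2 has its highest mean (4.30 CPM) in L.

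Glutathione synthesis and recycling rose against Landrace in 2 of 3 genes in each comparison, with 0 lower. GSR, glutathione reductase, regenerates reduced glutathione with NADPH. GSR (ENSSSCG00000015844) ran from 5.87 to 14.3 CPM (median 9.22) in the DLDPL libraries, 8.24 to 18.1 (median 11.2) in LDPL, 5.36 to 15.7 (median 9.88) in DPL and 4.07 to 7.99 (median 6.35) in L. LDPL did not overlap Landrace, and the other groups did at their low ends. Mean GSR levels were 9.47 ± 2.65 CPM in DLDPL, 12.4 ± 3.67 in LDPL, 9.94 ± 3.29 in DPL and 6.1 ± 1.32 in L (SD, n = 8 each). Set against L, GSR had a log2 change of 0.64 ± 0.20 (SE, adjusted p = 0.0198) in DLDPL, 1.02 ± 0.20 (SE, adjusted p = 0.000219) in LDPL and 0.71 ± 0.20 (SE, adjusted p = 0.00524) in DPL. The DLDPL call was lost without DLDPL replicate 28. The DLDPL and DPL calls were each lost under 3 of 10 other settings, namely library totals alone and both limma fits, with adjusted p of up to 0.0951 in DLDPL and 0.11 in DPL. GCLC is the catalytic subunit of glutamate-cysteine ligase, the rate-limiting step of glutathione synthesis. GCLC (ENSSSCG00000001488) ran from 9.64 to 17 CPM (median 12.3) in the DLDPL libraries, 8.3 to 18.9 (median 13.3) in LDPL, 10.1 to 20.3 (median 13.2) in DPL and 6.08 to 11.2 (median 8.9) in L. Each group overlapped Landrace at the bottom of its range, while the medians were all above the highest Landrace library. Mean GCLC levels were 12.5 ± 2.53 CPM in DLDPL, 13.1 ± 3.01 in LDPL, 14.1 ± 3.72 in DPL and 8.71 ± 1.58 in L (SD, n = 8 each). With L as the base, the log2 change of GCLC was 0.52 ± 0.16 (SE, adjusted p = 0.0149) in DLDPL, 0.59 ± 0.16 (SE, adjusted p = 0.00417) in LDPL and 0.69 ± 0.16 (SE, adjusted p = 0.000688) in DPL. The DLDPL call of GCLC was lost under the same 3 settings, with adjusted p of up to 0.0746. GSS, glutathione synthetase, was low, at 3.07 ± 0.778 CPM in DLDPL, 3.5 ± 0.704 in LDPL, 2.74 ± 0.488 in DPL and 2.86 ± 0.848 in L, and was called in no pair.

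Of 3 glutathione peroxidases, GPX4 was higher in DPL, and none was called in the crosses against Landrace. GPX4 is the selenoenzyme that reduces lipid hydroperoxides in membranes. GPX4 (ENSSSCG00000024052) ran from 8.53 to 13.1 CPM (median 10.8) in the DLDPL libraries, 6.62 to 11.8 (median 9.76) in LDPL, 9.91 to 15.7 (median 12.1) in DPL and 6.29 to 9.79 (median 8.67) in L. Every Dapulian library lay above every Landrace library. Mean GPX4 levels were 10.6 ± 1.76 CPM in DLDPL, 9.27 ± 1.89 in LDPL, 12.7 ± 2.37 in DPL and 8.59 ± 1.04 in L (SD, n = 8 each). The log2 change of GPX4 against L was 0.30 ± 0.13 (SE, adjusted p = 0.0911) in DLDPL, 0.11 ± 0.13 (SE, adjusted p = 0.56) in LDPL and 0.56 ± 0.13 (SE, adjusted p = 0.000853) in DPL. It was lower in LDPL than in DPL by a log2 change of -0.45 ± 0.13 (SE, adjusted p = 0.0492), a call that was lost in 24 of the 32 fits that left out 1 library and under 6 of 10 other settings. GPX8, an endoplasmic reticulum peroxidase, and GPX2, known mainly from gut epithelium, were called in no pair. Of the glutathione peroxidases GPX2 varied most, with 0.487 to 12.1 CPM across the 32 libraries.

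Catalase was the gene with the smallest p between the 4 groups (edgeR, adjusted p = 2.33e-06), and it was lower in all 3 groups than in Landrace. CAT breaks down hydrogen peroxide, mainly in peroxisomes. CAT (ENSSSCG00000013302) ran from 196 to 267 CPM (median 222) in the DLDPL libraries, 157 to 259.8 (median 199.6) in LDPL, 213 to 407 (median 275) in DPL and 330.4 to 453 (median 369) in L. No DLDPL or LDPL library overlapped Landrace, while the highest Dapulian libraries did. Mean CAT levels were 229.8 ± 28.4 CPM in DLDPL, 202 ± 37.9 in LDPL, 288 ± 67.4 in DPL and 379 ± 40.2 in L (SD, n = 8 each). Against Landrace, the log2 ratio of CAT was -0.72 ± 0.12 (SE, adjusted p = 6.63e-05) in DLDPL, -0.91 ± 0.12 (SE, adjusted p = 1.53e-06) in LDPL and -0.40 ± 0.12 (SE, adjusted p = 0.0102) in DPL. In LDPL it was also lower than in DPL, by -0.51 ± 0.12 (SE, adjusted p = 0.0218), a call that was lost without LDPL replicate 5 and without LDPL replicate 10. It was also lost under 4 of 10 other settings, namely library totals alone, both limma fits and a fit of these groups alone, with adjusted p of up to 0.131. In DLDPL against DPL the change was -0.33 ± 0.12 (SE, adjusted p = 0.124). No other gene of the 36 was called lower against Landrace in all 3 comparisons.

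SOD1, the copper and zinc superoxide dismutase of the cytosol, was higher in all 3 groups. SOD1 (ENSSSCG00000021355) ran from 59.9 to 98.2 CPM (median 81.7) in the DLDPL libraries, 64 to 93 (median 80.5) in LDPL, 53.5 to 121 (median 96.4) in DPL and 54.9 to 69.3 (median 61.4) in L. Landrace libraries were clustered low, and each group overlapped them at its lower end. Mean SOD1 levels were 81 ± 12.6 CPM in DLDPL, 79.3 ± 10.3 in LDPL, 92.4 ± 24.2 in DPL and 62.2 ± 6.01 in L (SD, n = 8 each). Relative to L, the fitted log2 change of SOD1 was 0.38 ± 0.13 (SE, adjusted p = 0.0301) in DLDPL, 0.35 ± 0.13 (SE, adjusted p = 0.0365) in LDPL and 0.57 ± 0.13 (SE, adjusted p = 0.00067) in DPL. The LDPL and DLDPL calls were lost under 5 and 4 of 10 other settings, and the DPL call under 3. Of the 32 fits that left out 1 library, 9 lost the LDPL call of SOD1 and 6 its DLDPL call. SOD3, the extracellular dismutase, was called in no pair, at 4.9 ± 2.76 CPM in DLDPL, 4.27 ± 0.923 in LDPL, 3.72 ± 1.36 in DPL and 4.76 ± 0.953 in L.

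HMOX2, the constitutive haem oxygenase that splits haem, had the second largest rise against Landrace in each of the 3 comparisons. HMOX2 (ENSSSCG00000007942) ran from 52.4 to 127 CPM (median 75.3) in the DLDPL libraries, 67 to 234 (median 121) in LDPL, 60.6 to 196 (median 121) in DPL and 35.2 to 58.4 (median 46.1) in L. LDPL and DPL lay wholly above Landrace, and DLDPL overlapped it at its lower end. Mean HMOX2 levels were 83.2 ± 26.9 CPM in DLDPL, 127 ± 53.2 in LDPL, 118 ± 39 in DPL and 45.8 ± 6.87 in L (SD, n = 8 each). For HMOX2, the log2 change against Landrace was 0.86 ± 0.22 (SE, adjusted p = 0.00394) in DLDPL, 1.47 ± 0.22 (SE, adjusted p = 5.7e-06) in LDPL and 1.37 ± 0.22 (SE, adjusted p = 8.74e-06) in DPL. The fitted fold was 1.82 in DLDPL, 2.77 in LDPL and 2.59 in DPL. HMOX2 overlaps CDIP1 in the RefSeq annotation, and with an unstranded library reads of the 2 genes cannot be told apart. The quinone reductase NQO2 was not called. NQO2 (ENSSSCG00000020758) ran from 0.851 to 2.04 CPM (median 1.39) in the DLDPL libraries, 0.785 to 1.35 (median 1.04) in LDPL, 0.516 to 1.69 (median 0.796) in DPL and 0.858 to 1.93 (median 1.33) in L. Mean NQO2 levels were 1.44 ± 0.416 CPM in DLDPL, 1.07 ± 0.214 in LDPL, 1.01 ± 0.417 in DPL and 1.4 ± 0.329 in L (SD, n = 8 each). All groups overlapped. Set against L, NQO2 had a log2 change of 0.03 ± 0.22 (SE, adjusted p = 0.93) in DLDPL, -0.39 ± 0.22 (SE, adjusted p = 0.189) in LDPL and -0.46 ± 0.22 (SE, adjusted p = 0.0998) in DPL. NQO1, the NRF2-driven quinone reductase, had means of 16.1 ± 10.5 CPM in DLDPL, 16.8 ± 7.41 in LDPL, 20.8 ± 8.99 in DPL and 13.1 ± 4.8 in L. Its change in DPL against L did not pass (adjusted p = 0.0879).

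**Figure D4:**
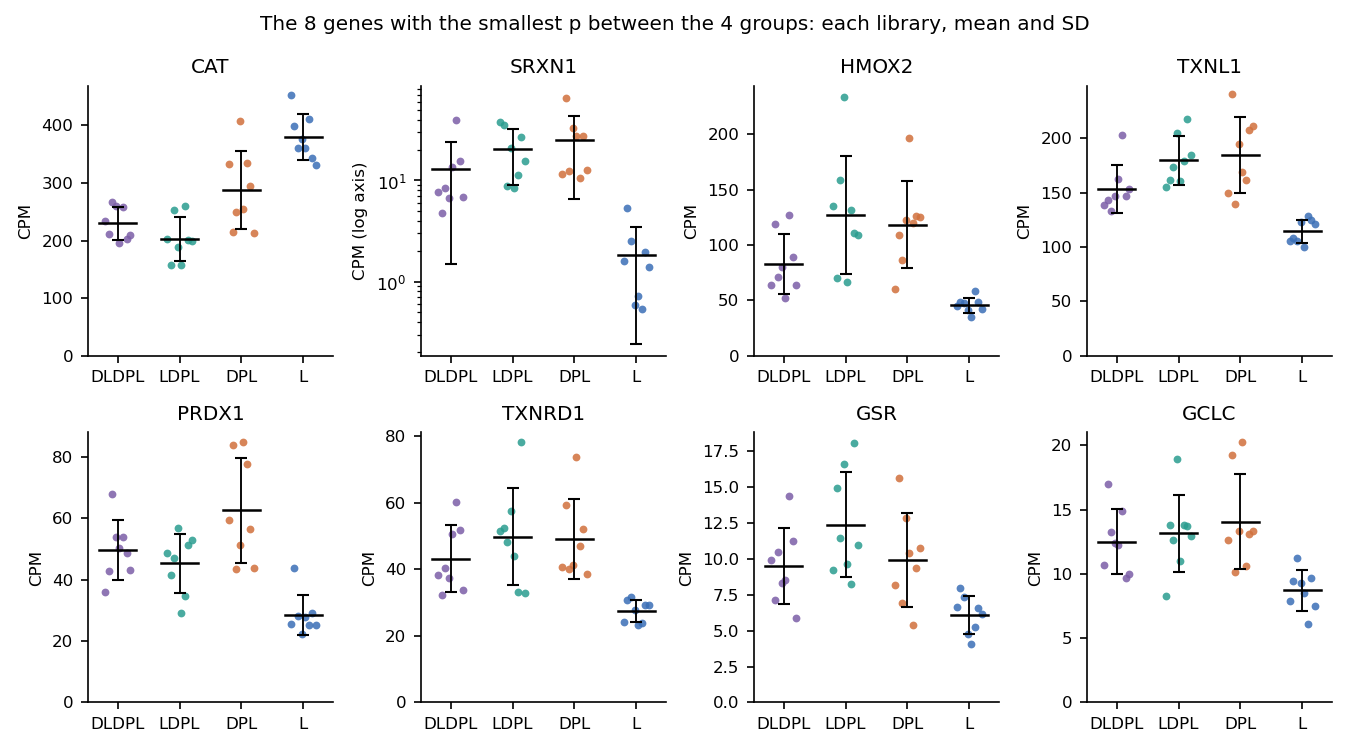
CPM in each library (points; SRXN1 on a log axis) of the 8 genes with the smallest p between the 4 groups, with mean and SD of 8 (lines), for DLDPL, LDPL, DPL and L. CAT is highest in Landrace (mean 379 CPM), and the other 7 genes are lowest there, SRXN1 at a mean of 1.84 CPM.

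The glutathione transferases, which join glutathione to electrophiles, rose in none of the 5 tested genes in any comparison with Landrace, and 0, 1 and 1 of them were lower in DLDPL, LDPL and DPL. GSTA4 acts on lipid aldehydes such as hydroxynonenal. GSTA4 (ENSSSCG00000002627) ran from 1.46 to 5.86 CPM (median 2.5) in the DLDPL libraries, 1.48 to 4.13 (median 2.08) in LDPL, 1.1 to 3.11 (median 1.92) in DPL and 1.26 to 7.94 (median 3.48) in L. The groups overlapped, with the widest range in Landrace. Mean GSTA4 levels were 3.36 ± 1.87 CPM in DLDPL, 2.58 ± 1.08 in LDPL, 2.05 ± 0.806 in DPL and 3.98 ± 2.16 in L (SD, n = 8 each). With L as the base, the log2 change of GSTA4 was -0.24 ± 0.33 (SE, adjusted p = 0.631) in DLDPL, -0.63 ± 0.33 (SE, adjusted p = 0.149) in LDPL and -0.95 ± 0.33 (SE, adjusted p = 0.023) in DPL. Its call was lost without Landrace replicate 8 and without Dapulian replicate 11. GSTZ1 is an isomerase of tyrosine breakdown. GSTZ1 (ENSSSCG00000002396) ran from 16.1 to 28.6 CPM (median 22.1) in the DLDPL libraries, 11.5 to 23.7 (median 18.8) in LDPL, 19.2 to 27.6 (median 21.3) in DPL and 19.8 to 27.9 (median 24.7) in L. LDPL lay lowest but overlapped Landrace. Mean GSTZ1 levels were 22.3 ± 4.04 CPM in DLDPL, 18.7 ± 3.82 in LDPL, 22 ± 2.52 in DPL and 24.1 ± 2.62 in L (SD, n = 8 each). The log2 change of GSTZ1 against L was -0.11 ± 0.12 (SE, adjusted p = 0.54) in DLDPL, -0.36 ± 0.12 (SE, adjusted p = 0.0199) in LDPL and -0.13 ± 0.12 (SE, adjusted p = 0.399) in DPL. Leaving out LDPL replicate 9 ended that call. MGST3, a microsomal transferase with peroxidase activity, was the most abundant of the group. MGST3 (ENSSSCG00000006325) ran from 28.6 to 55.2 CPM (median 43.1) in the DLDPL libraries, 27.6 to 49.2 (median 34.2) in LDPL, 31.9 to 67.4 (median 42.3) in DPL and 31.9 to 45.1 (median 39.1) in L. All groups overlapped, and DLDPL replicate 28 was low in its own. Mean MGST3 levels were 43.5 ± 7.49 CPM in DLDPL, 36 ± 6.62 in LDPL, 44.2 ± 10.7 in DPL and 39.3 ± 4.39 in L (SD, n = 8 each). Against Landrace, the log2 ratio of MGST3 was 0.14 ± 0.13 (SE, adjusted p = 0.452) in DLDPL, -0.13 ± 0.13 (SE, adjusted p = 0.486) in LDPL and 0.17 ± 0.13 (SE, adjusted p = 0.308) in DPL. GSTO1 and GSTM3 were called in no pair. GSTM3 read 2.1 CPM in Landrace replicate 2 and 0.0714 to 0.451 CPM in the other 7 Landrace libraries, and its log2 change in DPL against L was -0.95 with replicate 2 (adjusted p = 0.192) and 0.06 without it (adjusted p = 0.944).

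Sestrins restrain mTORC1 signalling and act in the response to oxidants. SESN1, a p53 and FOXO target, was abundant and did not pass in any comparison. SESN1 (ENSSSCG00000004390) ran from 110.2 to 199 CPM (median 146) in the DLDPL libraries, 104 to 195 (median 155) in LDPL, 128 to 207 (median 159) in DPL and 93.7 to 185 (median 151) in L. Mean SESN1 levels were 145 ± 27.1 CPM in DLDPL, 151 ± 34.7 in LDPL, 161 ± 26.6 in DPL and 143 ± 31.8 in L (SD, n = 8 each). All groups covered much the same range. Relative to L, the fitted log2 change of SESN1 was 0.02 ± 0.14 (SE, adjusted p = 0.938) in DLDPL, 0.08 ± 0.14 (SE, adjusted p = 0.709) in LDPL and 0.18 ± 0.14 (SE, adjusted p = 0.349) in DPL. SESN2, an ATF4-driven sestrin, was lower in both crosses. SESN2 (ENSSSCG00000029438) ran from 1.46 to 2.9 CPM (median 1.93) in the DLDPL libraries, 1.04 to 3.12 (median 1.94) in LDPL, 1.52 to 3.39 (median 2.38) in DPL and 2.13 to 4.9 (median 2.89) in L. Landrace lay highest but overlapped every group. Mean SESN2 levels were 2.09 ± 0.562 CPM in DLDPL, 2.06 ± 0.61 in LDPL, 2.48 ± 0.581 in DPL and 3.12 ± 0.918 in L (SD, n = 8 each). For SESN2, the log2 change against Landrace was -0.58 ± 0.20 (SE, adjusted p = 0.0344) in DLDPL, -0.60 ± 0.20 (SE, adjusted p = 0.0215) in LDPL and -0.34 ± 0.20 (SE, adjusted p = 0.182) in DPL. Without Landrace replicate 2 both calls were lost (log2 change -0.46, adjusted p = 0.0893 in DLDPL, and -0.49, adjusted p = 0.0602 in LDPL). In all, the DLDPL call was lost in 6 of the 32 fits that left out 1 library. It was also lost under both limma fits, with adjusted p of up to 0.0598. The LDPL call was also lost without LDPL replicate 14.

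Of 6 tested proteins with a thioredoxin domain, 2 were higher and 0 lower in each comparison with Landrace. TXNL1, a thioredoxin-like protein of the cytosol associated with the proteasome, was the second most abundant gene of the set. TXNL1 (ENSSSCG00000004537) ran from 133 to 203 CPM (median 147) in the DLDPL libraries, 155 to 218 (median 176) in LDPL, 139.9 to 241 (median 182) in DPL and 99.6 to 128 (median 114) in L. Every library of the other groups lay above every Landrace library. Mean TXNL1 levels were 154 ± 22.1 CPM in DLDPL, 179.5 ± 22.2 in LDPL, 184 ± 34.8 in DPL and 114 ± 10.8 in L (SD, n = 8 each). Set against L, TXNL1 had a log2 change of 0.42 ± 0.10 (SE, adjusted p = 0.00351) in DLDPL, 0.65 ± 0.10 (SE, adjusted p = 1.94e-05) in LDPL and 0.69 ± 0.11 (SE, adjusted p = 4.79e-06) in DPL. TXNDC11 is a membrane protein of the endoplasmic reticulum that binds the thyroid DUOX enzymes. TXNDC11 (ENSSSCG00000007896) ran from 2.05 to 4.22 CPM (median 2.52) in the DLDPL libraries, 1.95 to 3.77 (median 2.74) in LDPL, 2.32 to 3.59 (median 2.8) in DPL and 1.45 to 2.4 (median 1.89) in L. Each group overlapped Landrace at its lower end. Mean TXNDC11 levels were 2.79 ± 0.819 CPM in DLDPL, 2.85 ± 0.763 in LDPL, 2.82 ± 0.419 in DPL and 1.89 ± 0.366 in L (SD, n = 8 each). With L as the base, the log2 change of TXNDC11 was 0.56 ± 0.17 (SE, adjusted p = 0.0193) in DLDPL, 0.59 ± 0.17 (SE, adjusted p = 0.00974) in LDPL and 0.58 ± 0.17 (SE, adjusted p = 0.00883) in DPL. It overlaps SNN in the RefSeq annotation, and its DLDPL call was lost without DLDPL replicate 25. The DLDPL call was also lost with library totals alone and with limma on log2(RPKM + 1), with adjusted p of up to 0.0527. The DPL call of TXNDC11 was lost under 3 of 10 other settings, namely library totals alone and both limma fits, with adjusted p of up to 0.0923.

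TXNDC9 and TXNDC15 were not called. TXNDC9 binds the TCP1 chaperonin complex. TXNDC9 (ENSSSCG00000008181) ran from 20.4 to 27.6 CPM (median 23.3) in the DLDPL libraries, 15 to 27.3 (median 22.5) in LDPL, 15.8 to 29.5 (median 26.2) in DPL and 16.3 to 22.8 (median 20.7) in L. Groups overlapped widely. Mean TXNDC9 levels were 24.2 ± 2.58 CPM in DLDPL, 21.8 ± 3.88 in LDPL, 23.9 ± 5.36 in DPL and 20.3 ± 2.16 in L (SD, n = 8 each). The log2 change of TXNDC9 against L was 0.25 ± 0.12 (SE, adjusted p = 0.137) in DLDPL, 0.10 ± 0.12 (SE, adjusted p = 0.57) in LDPL and 0.23 ± 0.12 (SE, adjusted p = 0.133) in DPL. TXNDC15 is known for a role in cilium formation. TXNDC15 (ENSSSCG00000026106) ran from 45.7 to 88.9 CPM (median 54.5) in the DLDPL libraries, 58.1 to 76.1 (median 66.9) in LDPL, 41.5 to 90.02 (median 50.9) in DPL and 39 to 79 (median 65.3) in L. Dapulian replicate 23 and Landrace replicate 2 stood at opposite ends of their groups. Mean TXNDC15 levels were 61.6 ± 15.5 CPM in DLDPL, 67.4 ± 6.07 in LDPL, 53.9 ± 15.1 in DPL and 64 ± 11.5 in L (SD, n = 8 each). Against Landrace, the log2 ratio of TXNDC15 was -0.06 ± 0.14 (SE, adjusted p = 0.818) in DLDPL, 0.07 ± 0.14 (SE, adjusted p = 0.731) in LDPL and -0.25 ± 0.14 (SE, adjusted p = 0.175) in DPL. Without Landrace replicate 2, TXNDC15 was called lower in DPL (-0.34, adjusted p = 0.0473). The 11 tested genes not described one by one were called in no pair. Their log2 changes ran from -0.95 (GSTM3, 0.06 without Landrace replicate 2) to 0.99 (GPX2), both in DPL against L. One of them, PRDX6, had a log2 change of -0.20 in DPL against L (adjusted p = 0.153), and of -0.29 without Landrace replicate 2 (adjusted p = 0.0175).

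Genes of the same pathways outside the family were read from lists of genes that hold no member of it. Listed genes without a symbol or with too few reads were not tested, and the counts are of those tested. Beside the counts of these lists, 11.6% of all genes tested were higher and 10.3% lower in DLDPL against L. These shares were 14.9% and 14.7% in LDPL and 19.1% and 18.9% in DPL. Of 9 genes of NRF2 control, 3 were higher and 1 lower in DLDPL, 5 and 1 in LDPL, and 4 and 1 in DPL against L. The median log2 changes were 0.16, 0.31 and 0.23. SQSTM1, an autophagy receptor that draws KEAP1 away from NRF2, averaged 1056 ± 279 CPM in DLDPL, 1361 ± 358 in LDPL, 1049 ± 269 in DPL and 583 ± 137 in L. NFE2L1, a sister factor of NRF2, averaged 123.6 ± 15.4 CPM in DLDPL, 137 ± 26.0 in LDPL, 165 ± 37.5 in DPL and 75.1 ± 11.5 in L. BACH1, the repressor, was higher too, by log2 changes of 1.04 (adjusted p = 0.000835) in DLDPL, 1.0 (0.000778) in LDPL and 1.02 (0.000414) in DPL. NFE2L3, a related factor, was lower, by -1.87, -1.56 and -2.09 in DLDPL, LDPL and DPL.

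NADPH feeds both glutathione and thioredoxin reductase. Of 13 genes that supply it, 3 were higher and 1 lower in DLDPL, 0 and 1 in LDPL and 5 and 1 in DPL. NNT, the mitochondrial transhydrogenase, averaged 129.6 ± 24.3 CPM in DLDPL, 115 ± 17.3 in LDPL, 195 ± 30.7 in DPL and 99.5 ± 18.1 in L. IDH2, the mitochondrial NADP-linked dehydrogenase, was higher in DPL by 0.47 (adjusted p = 0.00229). ALDH1L2, of mitochondrial folate metabolism, was lower in all 3, by -0.41, -0.64 and -0.82 in DLDPL, LDPL and DPL. TKT, of the pentose phosphate pathway, was higher in DLDPL by 0.86 (adjusted p = 0.00271).

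Of 11 genes of glutathione turnover and glutaredoxins, 0 were higher and 1 lower in DLDPL, 1 and 1 in LDPL and 4 and 2 in DPL. SLC3A2, the heavy chain of the cystine transporter, was higher by 0.71 (adjusted p = 0.0102) in LDPL and 0.66 (adjusted p = 0.012) in DPL. GGT5, which breaks down glutathione outside the cell, was lower by -0.65 (adjusted p = 0.015) in DLDPL and -0.77 (adjusted p = 0.0033) in LDPL. Of 10 methionine sulfoxide reductases and selenoproteins, 1 was higher and 0 lower in DLDPL, 1 and 1 in LDPL and 3 and 0 in DPL, led by SELENOS, a selenoprotein of the endoplasmic reticulum (22.7 ± 1.59 CPM in DLDPL, 24.9 ± 5.04 in LDPL, 27.1 ± 7.97 in DPL and 12.7 ± 1.96 in L). Of 4 iron and haem genes, 0, 1 and 1 were higher in DLDPL, LDPL and DPL and 0 were lower. The haem breakdown gene BLVRB was higher in DPL by 1.01 (adjusted p = 0.000421). Of 7 genes that make superoxide or bear on it, 0 were called in DLDPL and LDPL and 1, the NADPH oxidase NOX4, was higher in DPL by 0.86 (adjusted p = 0.00382).

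Markers of other cell types were read in the same libraries. Summed fibroblast markers (5 of 7 with a symbol) were 940.5 to 2113 CPM in DLDPL, 544 to 1602 in LDPL, 343 to 1351 in DPL and 1292 to 2279 in L. Against Landrace 0, 3 and 4 of the 5 were lower in DLDPL, LDPL and DPL. Summed endothelial markers (5 of 8) were 64.9 to 124 CPM in DLDPL, 72.1 to 117 in LDPL, 69.2 to 142 in DPL and 90.1 to 168 in L, and 1, 3 and 2 of the 5 were lower in DLDPL, LDPL and DPL. Of 5 smooth muscle and pericyte markers, 3, 2 and 2 were higher in DLDPL, LDPL and DPL, and 0, 0 and 2 lower. Of 3 tested adipocyte markers, 2 were higher in DLDPL and 0 were called in LDPL and DPL. Of 3 tested lymphocyte markers, 2, 0 and 1 were lower in DLDPL, LDPL and DPL, with 0 higher. Landrace replicate 2 is part of these comparisons, with a lymphocyte sum of 30.9 CPM where the Landrace median was 8.37 CPM. Of 4 muscle fibre markers, 1 was higher and 1 lower in DPL, with 0 called in DLDPL and LDPL. None of 6 macrophage or 2 tested red blood cell markers was called against Landrace. Neutrophil markers (4 of 6) summed to at most 1.57 CPM in any library. The part of these markers in the changes of the antioxidant genes was not tested.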

How the data were processed

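The authors sequenced RNA of the longissimus dorsi with a kit that does not mark strand, per the labels' protocols. Bowtie 0.12.2 and Cufflinks are named in the submitters' processing notes, with mm8, a mouse build. The files list pig Ensembl identifiers. As the pig build and annotation are not given in the sources used, no positions are printed. The authors deposited, per library and gene, a raw count of uniquely mapped reads, an RPKM value, the gene length and the percent of that length covered. A gene with no reads was not listed and was given 0. Recomputing RPKM gave the deposited values within a relative deviation of 2.2e-14. Lengths of the members did not differ between files.

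Symbols came from a table of gene names and were found for 60.4% of identifiers. Identifiers without one held 14.5% of reads. Overlapping genes came from the RefSeq table of Sscrofa11.1. No sequence is printed. Counts were filtered with filterByExpr (minimum count 10, minimum total count 15), scaled by TMM and fitted as 4 groups in 1 quasi-likelihood model (edgeR 4.0.16, R 4.3.3), with all 32 libraries. Biological variation had a common coefficient of 0.285, and the 12821 genes kept held 99.97% of reads. All 6 pairs and 1 test of any difference between the groups were made, with Benjamini-Hochberg adjustment over all genes tested, and the steps were tested on simulated data. Each SE was taken from the log2 change and the square root of its F statistic. DESeq2 1.42.0 and limma 3.58.1 on log2(RPKM + 1) and log2(RPKM + 0.1) were alternatives, beside other scalings and filters and each library left out.

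Values are given for the 24 members with the smallest p between the 4 groups and the 10 with the highest mean RPKM, which made 25 genes in all, and for up to 4 genes of each pathway list with the smallest p. The members, lists and tests were chosen with earlier results of these data known. Groups and replicate numbers came from the labels. The labels speak of 32 pigs, and if libraries did not come from separate animals the p-values stand for the spread among these libraries alone. No 2 libraries of a group agreed within sampling noise (smallest chi-square per degree of freedom 33.7).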

Additional observations from a re-analysis of the deposited data

Results flagged for a closer look

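Among the 25 genes given with values, 8 of the 100 sets of 8 libraries held a library far from the other 7 on the log2 scale, by Dixon's ratio against its 95% value of 0.526. Chance alone flags about 1 set in 20. Landrace replicate 2 stood apart for 3 genes. Its PRDX1 level was 43.8 CPM, where the other Landrace libraries had 22.2 to 29.1 CPM. Its PRDX4 level was 12.1 CPM, beside 19.8 to 30.1 CPM, and its TXNDC15 level 39.0 CPM, beside 62.3 to 79.0 CPM. The same library had the lowest summed muscle fibre markers and the highest summed macrophage markers of all 32, and the part of these in the 3 values was not tested.

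Dapulian replicate 23 stood apart for 2 genes, with 357 CPM of PRDX2, beside 195 to 259 CPM in the other Dapulian libraries, and 90.0 CPM of TXNDC15, beside 41.5 to 52.8 CPM. Landrace replicate 10 had a GPX4 level of 6.29 CPM, below the 8.25 to 9.79 CPM of its group. LDPL replicate 14 had a TXNRD2 level of 1.31 CPM, below the 2.33 to 3.59 CPM of its group. DLDPL replicate 28 had an MGST3 level of 28.6 CPM, below the 41.5 to 55.2 CPM of its group.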

How the results depend on the processing

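Of 44 calls of the named genes in a pair of groups, 28 were kept under all of the other settings each was run in and 25 also with each library left out, and 0 turned round. Counts of members called moved as follows. With library totals alone, DPL against L gave 8 higher and 7 lower (13 and 4 in the fit reported), DLDPL against L 5 higher, LDPL against DPL 1 higher and 0 lower, and DLDPL against DPL 1 higher. That scaling moves the median log2 change of all genes to -0.19 in DPL against L and 0.15 in DLDPL against DPL, and upper quartile scaling moves the first to -0.10. Limma with a pseudocount of 1 gave 7 lower in DPL against L, 5 higher and 1 lower in DLDPL against L, 1 higher and 0 lower in LDPL against DPL and 1 higher in DLDPL against DPL. With 0.1 it gave 8 higher and 7 lower in DPL against L, 5 higher and 1 lower in DLDPL against L, and 1 higher and 0 lower in LDPL against DPL. A mean RPKM of at least 1 left 1 lower in DLDPL against L, since SESN2 was then not tested. In LDPL against DPL, upper quartile scaling and no filter each gave 1 lower, and a fit of the 2 groups alone 0. In DLDPL against DPL, DESeq2 and leaving out the mitochondrially encoded genes each gave 1 lower. Both limma fits use the deposited RPKM, which scales by library totals and not by TMM, so they share the scaling of the fit with library totals alone. The cause of the moved counts was not tested in any of these settings.

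Leaving out 1 library gave, against L, 7 to 9 higher and 1 to 2 lower in DLDPL, 8 to 10 higher and 3 to 4 lower in LDPL, and 12 to 14 higher and 2 to 6 lower in DPL. It gave 0 to 3 lower in LDPL against DPL, with 0 without LDPL replicate 5 or 10, 0 to 2 lower in DLDPL against DPL, and 14 to 18 genes in the test of any difference. L and LDPL share 5 replicate numbers. On those 10 libraries the replicate block gave 1 lower gene and 6 higher, and the same libraries without the replicate block also gave 1 and 6, in place of 4 and 9. Deviations of same-numbered libraries correlated at -0.10 to 0.07, and in 1 of 5 was the own number the best match. With 5 numbers and no sire, batch or date in the labels, what the numbers stand for cannot be told. Depth limits the genes with few reads: GSTM3 had 0 to 75 reads per library and TXNL4B 3 to 29, and 3 reads stand for 0.101 to 0.138 CPM.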

Other observations

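Lists of genes driven by other stress-responsive factors were read beside the antioxidant genes. Tested were 6 of 10 listed FOXO targets, 3 of 11 ATF4 genes and 2 of 8 p53 targets. Of all genes tested, 11.6% were higher and 10.3% lower in DLDPL against L. These shares were 14.9% and 14.7% in LDPL and 19.1% and 18.9% in DPL. Of 6 targets of the FOXO factors, 3 were higher and 2 lower in DLDPL, 4 and 2 in LDPL and 4 and 2 in DPL against L. PDK4, the kinase that shuts down pyruvate dehydrogenase, averaged 1967 ± 585 CPM in DLDPL, 2601 ± 1278 in LDPL, 3689 ± 1606 in DPL and 571.5 ± 343 in L. TRIM63, a ubiquitin ligase of muscle wasting, averaged 378 ± 66.9 CPM in DLDPL, 417 ± 92.2 in LDPL, 440.4 ± 119 in DPL and 188 ± 64.3 in L. CITED2 and CCNG2 were lower in all 3 groups, CITED2 by log2 changes of -1.44, -1.71 and -0.95 and CCNG2 by -0.75, -1.08 and -1.33 in DLDPL, LDPL and DPL.

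Of 3 tested genes of the ATF4 response, 0 were higher, and 1, 2 and 3 were lower in DLDPL, LDPL and DPL. PHGDH, the first enzyme of serine synthesis, averaged 0.947 ± 0.522 CPM in DLDPL, 0.617 ± 0.583 in LDPL, 0.210 ± 0.129 in DPL and 4.47 ± 5.75 in L. Of 2 tested p53 targets, 1, 2 and 1 were higher in DLDPL, LDPL and DPL. PLK2, a stress-induced kinase, was higher in all 3 by log2 changes of 1.57, 1.40 and 1.48.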
